A study of Mus musculus with 2 samples.

Results

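The genes described here store iron, carry it across membranes and sense it: the ferritin chains Ftl1 and Fth1, the import genes Tfrc, Slc11a2 and Trf, the export genes Slc40a1 and Heph, the heme-degrading enzyme Hmox1, and the RNA-binding regulators Aco1 and Ireb2. They were chosen as a list by name, without a cut on their values but with earlier results of these data known. All 10 were found among 43346 Ensembl genes in the gene tables of both libraries. The libraries are total RNA-seq of kidneys from newborn mice of the strain B6NCrl, taken on postnatal day 0 with no treatment, both kidneys of 1 pup in each library. The 2 pups form the only group and had the same mother, so the spread between them (n = 2) leaves out differences between litters. The labels do not give their sex. Nothing is compared between conditions, and the comparisons are between genes within the tissue and between the pups. Levels are deposited TPM, which divide the reads by transcript length and scale each library to the same total, given for pup 1 and pup 2 in that order and as mean ± SD.

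Iron enters most cells bound to transferrin, is released in endosomes and crosses into the cytosol through a divalent metal transporter. Ferritin, a shell of heavy and light chains, holds what is not used, and ferroportin is the exporter. Control runs in both directions through the iron regulatory proteins encoded by Aco1 and Ireb2, which bind a hairpin in mRNA, the iron-responsive element, when iron is scarce. Binding near the start of an mRNA blocks its translation, and binding after the coding sequence shields the mRNA from decay. In the kidney, tubule cells take up filtered iron, and ferroportin and ferritin are found along the tubule.

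The hairpin sequences are shown because the proteins of Aco1 and Ireb2 bind such sequences in mRNAs of other genes of the set. Transcript sequences of the GENCODE M21 annotation (GRCm38, the assembly mm10) were searched, in the sense direction only, for a C followed by any 5 bases and the loop CAGTGN, with all 5 base pairs closing the 6-base loop (G-T pairs allowed) and at least 3 of 5 pairs below the bulged C. A match was found in 4 of the 10 genes, each time in an untranslated region. As background, 0.434% of 21901 protein-coding genes had a match anywhere in a coding transcript. The pattern was written after the known element, which genes of this set are known to carry, so the 2 shares are no test of enrichment. Capitals mark the bulged C and the 6-base loop, and each sequence reads 5′ to 3′ along the mRNA.
Ftl1: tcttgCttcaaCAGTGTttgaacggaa
Fth1: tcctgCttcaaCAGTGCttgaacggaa
Slc40a1: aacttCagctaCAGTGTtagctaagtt
Tfrc element 1: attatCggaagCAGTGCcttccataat
Tfrc element 2: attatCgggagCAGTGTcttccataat
Tfrc element 3: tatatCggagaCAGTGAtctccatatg
Tfrc element 4: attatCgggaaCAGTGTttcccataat

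The Ftl1 element lies in the 5′ UTR, in exon 1, at chr7:45459780-45459806 on the minus strand. That of Fth1 lies in the 5′ UTR, in exon 1, at chr19:9982733-9982759 on the plus strand. The Slc40a1 element is also in the 5′ UTR, in exon 1, at chr1:45925466-45925492 on the minus strand. The ferritin elements share 25 of 27 bases with each other, and each shares 13 of 27 with that of Slc40a1. The ferritin hairpins form 4 of the 5 pairs below the bulge and the Slc40a1 hairpin all 5.

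The 4 Tfrc elements lie together in the 3′ UTR, in exon 19, on the plus strand of chromosome 16. Element 1 is at chr16:32631220-32631246, element 2 at chr16:32631599-32631625, element 3 at chr16:32631664-32631690 and element 4 at chr16:32631711-32631737. All 4 form every pair asked for on both sides of the bulge. Elements 1 and 2 share 25 of 27 bases, whereas element 3 shares 17 or 18 with each of the others. Matches within a 5′ UTR were found in 0.0317% of the 50507 annotated 5′ UTRs, and within a 3′ UTR in 0.121% of 44785.

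Asking for no pairs below the bulge gave a match in 1.34% of protein-coding genes and added none of the 10. Asking for 4 of the 5 loop pairs gave a match in 3.26% and added Heph. Both relaxations together, a setting chosen after the others had been seen, gave a match in 10.7% and added Slc11a2.
Slc11a2: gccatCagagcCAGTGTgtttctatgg
Heph: ttcctCctcttCAGTGTgatagatgag

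The Slc11a2 sequence is in the 3′ UTR, in exon 16, at chr15:100395154-100395180 on the minus strand, with 4 loop pairs and 1 pair below the bulge. That of Heph lies in the coding sequence, in exon 6, at chrX:96470786-96470812 on the plus strand, with 4 pairs on each side. Pairs were counted position by position, so a stem with an extra unpaired base scores low or is missed. With 1 t of gtttct left unpaired, every loop pair of the Slc11a2 sequence forms, and ccat pairs with atgg below the bulge. How many other genes match when 1 base may stay unpaired was not counted. Transcripts of Hmox1, Trf, Aco1 and Ireb2 held no match under any of the 4 settings, which says only that these letters are not in the annotated transcripts. A match is a description of letters, and binding was not measured.

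The libraries held 41584961 and 48823952 expected counts (estimated reads), and the limit for a gene with no counts, 3 counts, is 0.0721 and 0.0614 CPM (counts scaled to library size). All 11 kidney markers checked were detected, meaning at least 1 TPM in each pup, led by the collecting duct water channel Aqp2 (547.0 and 638 TPM), with the nephron progenitor gene Six2 lowest (9.21 and 15.1 TPM). Markers of other cell types were read too: the 10 macrophage markers summed to 123 and 138 TPM, with 7 detected, C1qb highest (44.9 and 55.1) and Vsig4 lowest (0 and 0.02). The 12 erythroid markers that could be matched summed to 4611 and 4481 TPM, with 7 detected, from Hba-a2 (2081 and 1954) down to Gata1 (0.07 and 0.06). The 12 liver markers summed to 239 and 224.5 TPM, with 9 detected, led by Afp (105 and 95.3) with Cps1 lowest (0.17 and 0.12). No marker of these lists was at 0 in both pups. Marker sums do not show that a cell type was present, and in the liver list Afp stood far above Alb (5.65 and 2.42 TPM). Macrophages, erythroid cells and hepatocytes also express iron genes. Their part in the levels below was not tested, and fewer cells of a type cannot be told apart from less RNA per cell.

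All 10 iron genes were detected, as were 61.5% of 21474 protein-coding genes. Their levels ran from the ferritins, among the most abundant mRNAs of the tissue, to Heph and Ireb2 near the middle of the detected genes. Together they held 0.869% and 0.811% of all TPM, and Ftl1 with Fth1 made up 96.0% and 96.3% of that. The other 8 genes summed to 346 and 298 TPM.

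**Figure D1:**
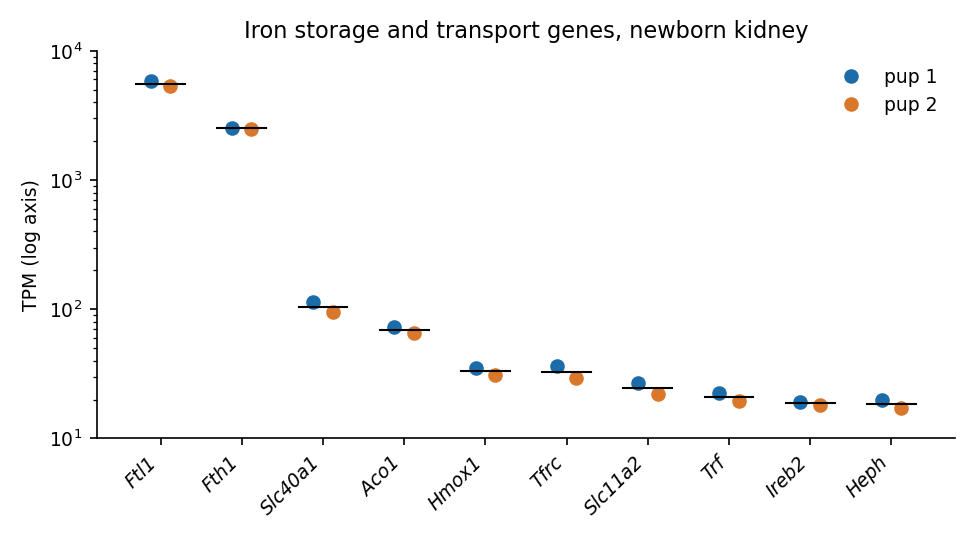
Deposited TPM on a log axis for the 10 iron genes in pup 1 and pup 2, ordered by mean level, with a line for the mean. The ferritin chains sit at 2474 TPM or above, Slc40a1 at 114 and 94.8, and the other 7 between 17.3 and 72.5 TPM.

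Storage was led by the light chain. Ftl1 (ENSMUSG00000050708, chr7:45457944-45459884, minus strand), the ferritin subunit that seeds the iron core, measured 5805 and 5343 TPM, or 5574 ± 327, rank 8 among protein-coding genes. Fth1 (ENSMUSG00000024661, chr19:9980598-9985098, plus strand), the subunit with the ferroxidase that oxidises incoming iron, measured 2535 and 2474 TPM, or 2504 ± 43.0, rank 17. Both pups of Ftl1 lay above both pups of Fth1. The light chain transcript was 2.29 and 2.16 times as abundant as the heavy chain, a difference of 1.15 ± 0.0599 on the log2(TPM + 1) scale. That is larger than 0.37, the size that 95% of detected genes did not exceed as a difference between the pups, which serves as the limit for the gene pairs that follow. The limit comes from single genes compared across the pups. How many pairs of different genes pass it was not counted.

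Ferritin reads are shared with copies elsewhere in the genome, and Ftl1 is the gene this touches. Of the 50-base windows in Ftl1 transcripts, 58.4% also occur in transcripts of other genes, 17 genes in all, whereas 1.59% of those of Fth1 do, in 1 gene. Genes with at least 20% of their own windows in a ferritin transcript numbered 7, all sharing sequence with Ftl1 rather than Fth1, and 5 were in the deposited tables. They include copies elsewhere in the genome and annotations that overlap Ftl1 itself. Ftl1-ps1 (chromosome 13, annotated as protein-coding, 57.6% of windows shared) was given 130 and 128 TPM, from 3171 and 3833 counts, which is 2.12% and 2.27% of the counts of Ftl1. The processed pseudogenes were lower: Gm15590 stood at 6.77 and 5.3 TPM, Ftl2-ps at 0.88 and 0.61, and Ftl1-ps2 at 0.62 and 0.63. Gm6977, the gene that shares windows with Fth1, was given 9.01 and 7.06 TPM and had 12.5% of its windows in common with it.

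Gm22133, an annotated miRNA gene of 109 nt, lies within Ftl1 on the same strand, and all of its windows are Ftl1 sequence. It received 1418 and 1624 counts, 0.950% and 0.961% of those of Ftl1, yet its TPM was 4782 and 4452, or 82.4% and 83.3% of the Ftl1 level. The TPM divides by an effective length, which was 10 nt for this gene. Look-alikes thus held 37.1% and 37.0% of the TPM of the ferritin sequence family, but 2.22% and 2.28% of its counts. Without Gm22133 their share of TPM was 1.63% and 1.69%. The labels give the RNA of these libraries as longer than 200 nt, and reads of this gene cannot be told apart from those of Ftl1.

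**Figure D2:**
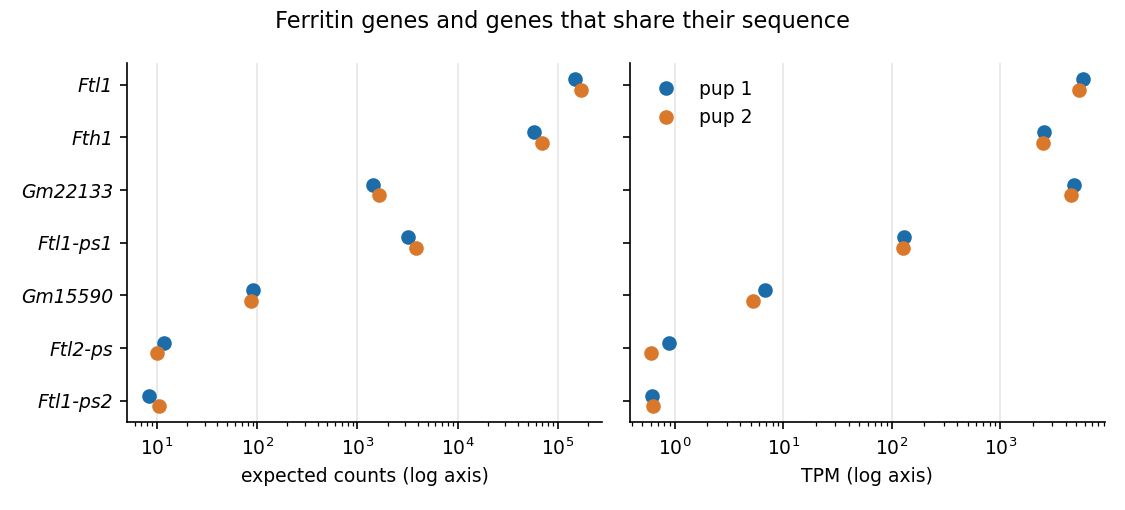
The ferritin genes and the look-alikes in the tables, by expected count (left) and by TPM (right) in each pup, on log axes. Gm22133 sits beside Ftl1 by TPM (4782 and 4452 against 5805 and 5343) but far below it by count (1418 and 1624 against 149326 and 169009).

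The deposited model gives a posterior SD for the count of each gene, a measure of how far reads could move to other genes. For Ftl1 it was 102 and 113 counts, or 0.0683% and 0.0667% of the count, and for Fth1 1.88 and 1.84 counts. It was 0 in both pups for Tfrc, Slc40a1, Hmox1, Aco1, Ireb2 and Heph. The uncertainty assigned by the model to the ferritins is thus small beside the spread of the pups. Ftmt, the mitochondrial ferritin, had no counts in either pup, and Fth1 was at least 33879-fold higher in pup 1 and at least 40681-fold higher in pup 2, taking 3 counts per library as the floor.

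Of the import genes, Tfrc (ENSMUSG00000022797, chr16:32608920-32632794, plus strand), the receptor that takes up iron-loaded transferrin, measured 36.3 and 29.6 TPM. Slc11a2 (ENSMUSG00000023030, chr15:100387898-100425072, minus strand), the divalent metal transporter DMT1, measured 26.8 and 21.9 TPM. Trf (ENSMUSG00000032554, chr9:103204001-103230444, minus strand), transferrin itself, measured 22.4 and 19.7 TPM. Tfrc exceeded Slc11a2 by 1.35 times in both pups and Trf by 1.62 and 1.51 times. These gaps, 0.42 ± 0.00304 and 0.62 ± 0.0731 on the log2(TPM + 1) scale, both passed the limit of 0.37. The second transferrin receptor, Tfr2, stood at 0.05 and 0.09 TPM (4 and 9 counts). Tfrc was 725 and 329 times as abundant by TPM, and the gap of 4.98 ± 0.238 on the log2(TPM + 1) scale is set largely by the added 1, since it was 7.61 with 0.1 added.

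Tfrc and Trf had the smallest shares of protein-coding transcripts among the 10 genes, where the other 8 were at 90.5% or more in each pup. Protein-coding transcripts carried 68.4% and 64.4% of Tfrc TPM, and transcripts annotated as retaining an intron carried 31.6% and 35.6%. The main coding transcript, Tfrc-201 (4890 nt), measured 23.8 and 17.9 TPM, and the retained-intron transcript Tfrc-204 measured 9.85 and 8.96 TPM. When protein-coding transcripts alone are counted, a setting added after the data were seen, Tfrc measured 24.8 and 19.1 TPM and Slc11a2 24.3 and 20.3 TPM. The pups of these genes then overlapped, with a difference of −0.028 ± 0.0809 on the log2(TPM + 1) scale, so the gap between Tfrc and Slc11a2 rests on which transcripts are counted.

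Trf was the least certain member. Its main transcript, Trf-201 (2571 nt), measured 13.9 and 14.0 TPM, 62.0% and 71.3% of the gene. A short retained-intron transcript, Trf-209 (433 nt), was assigned 8.17 and 5.65 TPM, or 36.5% and 28.7%. In Trf transcripts 59.4% of windows occur in other genes, 85 in all, among them Gm20425, which overlaps Trf on the same strand (1.85 and 0.79 TPM). The posterior SD of the Trf count was 49.1 and 40.1 counts, 4.43% and 3.01% of its value, the highest share in the set. Liver is the main source of transferrin, and of the 9 liver markers tested 7 were below 0 and 2 above 0 on the log2 scale of pup 2 over pup 1 after TMM scaling, with a median of −0.06. The range ran from −1.13 for Ahsg to 0.23 for Ttr, and 2 of the 9, Alb (5.65 and 2.42 TPM) and Ahsg (5.15 and 2.15 TPM), were past 2-fold. By deposited TPM, a scale unlike that of the marker ratios, Trf coding transcripts were nearly level between the pups at 14.2 and 14.0 TPM. On that scale the median detected gene was at −0.09 as log2 of pup 2 over pup 1. The part of liver RNA in the Trf level was not tested.

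Slc11a2 is known for mRNA forms that differ at their end, with and without an iron-responsive element. The stricter search found none in its transcripts, but it allowed no unpaired base within the stem. It therefore does not show which form carries the known element. Slc11a2-205 (4415 nt), which holds the looser match printed with the hairpins, measured 14.2 and 11.1 TPM. Slc11a2-201 (3025 nt), which lacks it, measured 8.62 and 7.95 TPM. The form with the looser match made up 62.2% and 58.2% of the pair, or 60.2% ± 2.79, and 52.9% and 50.5% of the TPM of the gene. It was the higher of the pair in both pups.

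**Figure D3:**
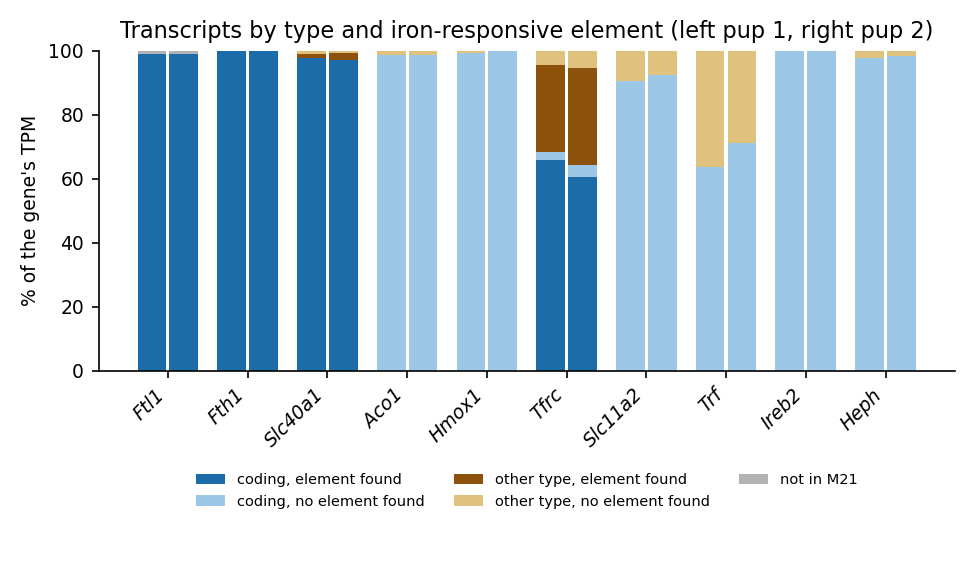
Stacked bars (left pup 1, right pup 2) give the percent of each gene's TPM in protein-coding transcripts (blue) and other transcript types (brown), darker where the stricter search found an element, and in grey what is not in M21. Dark bars fill Ftl1, Fth1 and Slc40a1 to 98.95% or more and Tfrc to 92.9% and 90.8%, and the looser Slc11a2 and Heph matches are not drawn as elements.

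The elements lay on nearly all of the RNA of the genes that hold them. Transcripts with an element made up 98.95% and 98.96% of Ftl1 TPM, 100% of Fth1 TPM and 99.1% and 99.3% of Slc40a1 TPM. Fth1 was quantified as 1 transcript, so its 100% was fixed once that transcript matched. The rest of Ftl1 was in 4 transcripts absent from M21, which were not searched. For Tfrc the share was 92.9% and 90.8%, and it includes Tfrc-204, which holds the 4 elements although it is annotated without a coding sequence. The deposited Fth1 transcript is 63 nt shorter than that of M21, and the element begins at base 88 of the M21 form.

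Export was led by Slc40a1 (ENSMUSG00000025993, chr1:45908068-45926523, minus strand), which encodes ferroportin, the iron exporter of vertebrate cells. It measured 114 and 94.8 TPM, the highest level after the ferritins, and 97.7% and 97.2% of it was in protein-coding transcripts. Heph (ENSMUSG00000031209, chrX:96455359-96574485, plus strand) encodes hephaestin, a membrane ferroxidase that loads exported iron onto transferrin, and measured 19.9 and 17.3 TPM. Slc40a1 was 5.73 and 5.48 times as abundant as Heph, a gap of 2.42 ± 0.0525 on the log2(TPM + 1) scale. Heph in turn was 4.59 and 3.46 times as abundant as Cp, the plasma ferroxidase ceruloplasmin (4.34 and 5.01 TPM). The third gene of this ferroxidase family, Hephl1, stood at 0.01 TPM in each pup, from 2 and 1 counts, below the limit of 3 counts.

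Ferroportin RNA exceeded transferrin receptor RNA in both pups. The ratio of Tfrc to Slc40a1 was 0.317 and 0.313, a gap of −1.64 ± 0.0112 on the log2(TPM + 1) scale, and it widened to −2.17 ± 0.0619 with coding transcripts alone. Macrophages that recycle red cells are rich in ferroportin. The highest macrophage markers of the list, C1qb, C1qa and C1qc, were at 22.4 to 55.1 TPM. Cd163 (0.6 and 0.48 TPM), Timd4 (0.33 and 0.08) and Vsig4 (0 and 0.02) fell short of detection. The part of macrophage RNA in the Slc40a1 level was not tested. Of the 8 macrophage markers tested, 5 were above 0 and 3 below 0 on the log2 scale of pup 2 over pup 1 after TMM scaling, from −0.29 for Cd68 to 0.39 for C1qc, with a median of 0.07. Transcripts of Heph share no 50-base window with another gene, although the ribosomal pseudogene Rpl17-ps8 lies within its span on the same strand (19.3 and 17.3 TPM).

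Heme breakdown was represented by Hmox1 (ENSMUSG00000005413, chr8:75093621-75100589, plus strand), the inducible heme oxygenase, which frees iron from heme. It measured 34.9 and 31.1 TPM, and 99.3% and 100% of this was in its protein-coding transcript. Hmox2, the constitutive form, measured 87.2 and 81.1 TPM. The ratio of Hmox1 to Hmox2 was 0.400 and 0.384, a gap of −1.32 ± 0.0402 on the log2(TPM + 1) scale, so the constitutive enzyme was the more abundant in both pups.

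Of the regulators, Aco1 (ENSMUSG00000028405, chr4:40143081-40198338, plus strand), which encodes the iron regulatory protein that doubles as cytosolic aconitase, measured 72.5 and 65.8 TPM. Ireb2 (ENSMUSG00000032293, chr9:54863789-54912530, plus strand), whose protein is degraded when iron is ample, measured 19.3 and 18.0 TPM. Aco1 RNA was 3.75 and 3.65 times that of Ireb2, a gap of 1.83 ± 0.0309 on the log2(TPM + 1) scale. Each came almost wholly from 1 coding transcript: 98.7% and 98.6% of Aco1 TPM and 100% of Ireb2 TPM. For Ireb2 this was the only transcript quantified, so its share was fixed.

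The order of levels was Ftl1, Fth1, Slc40a1, Aco1, Hmox1, Tfrc, Slc11a2, Trf, Ireb2 and Heph. Neighbours were called apart when their pups did not overlap and the gap of their means was larger than the larger difference between pups of the genes compared. This held for 5 of 9 neighbours, and the share among other genes was not counted. The widest step was from Fth1 to Slc40a1, 24.0-fold against a difference of 1.21-fold between pups. Ftl1 over Fth1 (2.23-fold), Aco1 over Hmox1 (2.09-fold), Slc40a1 over Aco1 (1.51-fold) and Tfrc over Slc11a2 (1.35-fold) were also apart. Hmox1 with Tfrc and Ireb2 with Heph did not differ beyond their spread, and each of these pairs changed places between the pups. Slc11a2 with Trf (1.16-fold) and Trf with Ireb2 (1.13-fold) were not apart either. With coding transcripts alone, Trf came last at 14.2 and 14.0 TPM.

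Between the pups the set was close to level. After TMM scaling, which sets the libraries to a common scale by their shared genes, 0 of 10 passed a 2-fold difference, beside 0.587% of 15150 genes tested (89 genes, with 0.429% higher and 0.158% lower in pup 2). The median absolute log2 difference was 0.06 for the 10 genes and 0.10 over all genes tested. Tfrc differed most, at −0.25 (counting interval −0.31 to −0.19, 95%, exact binomial, counting error only), where a negative value means lower in pup 2. For 95% of all genes tested the absolute difference was at most 0.44. Slc11a2 (−0.20) and Slc40a1 (−0.18) came next, and the difference was smallest for Ireb2 (−0.01).

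Direction between the pups depended on the scale. On the TMM scale 8 of 10 were lower in pup 2, beside 49.4% of all genes tested, with Fth1 (0.05) and Trf (0.06) above 0. By TPM all 10 were lower in pup 2, but so were 69.4% of the 14684 detected genes. For 7 of 10 the counting interval left out 0, as it did for 40.4% of all genes tested, and Hmox1, Trf and Ireb2 were the exceptions. With 1 library a side there is no replicate check of any of these differences, and no p-value is given.

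**Figure D4:**
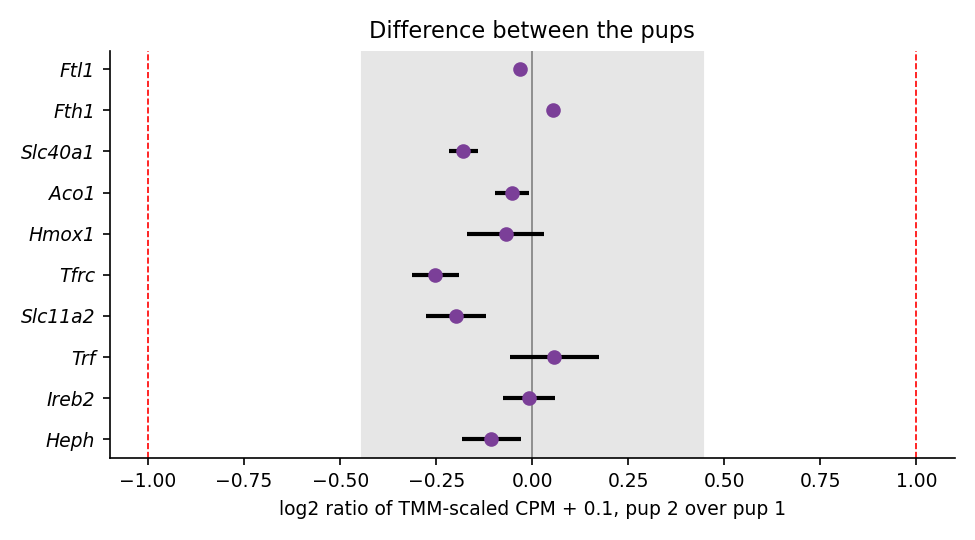
Log2 ratio of pup 2 over pup 1 for the 10 iron genes on the TMM scale, with exact binomial 95% counting intervals, with dashed lines at 2-fold and a grey band that holds 95% of all genes tested. The 10 lie between −0.25 (Tfrc) and 0.06 (Trf), within the band, which ends at 0.44 on each side.

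A wider list of 57 genes of iron handling, all matched, gives the setting of these 10. Of the 57, 46 were detected, beside 61.5% of protein-coding genes. Between the pups 0 of 49 tested passed 2-fold, beside the 0.587% of all genes. The median of the list, undetected genes included, was 13.7 ± 0.403 TPM, against 4.71 for protein-coding genes. For detected genes alone, an unlike set, it was 15.8.

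The mitochondrial iron genes were detected as a whole, 10 of 10, with a median of 47.6 ± 0.0460 TPM. The iron-sulfur cluster genes Glrx5 (207 and 208 TPM), Iscu (154 and 161), Isca1 (121 in both) and Isca2 (96.3 and 104) were highest and the mitochondrial importer Slc25a37 lowest (5.47 and 4.84). All 5 sensing genes were detected, and their median was 40.4 ± 1.82 TPM. Nfe2l2, a transcription factor that drives ferritin and Hmox1, led them at 79.9 and 77.1 TPM, followed by Fbxl5, the iron-sensing adaptor that marks the Ireb2 protein for degradation, at 52.2 and 49.0 TPM. Keap1 (41.7 and 39.1), Epas1 (10.3 and 11.3) and Bach1, a repressor of Hmox1 (6.88 and 5.07), were lower.

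Heme handling had 8 of 9 genes detected and a median of 28.65 ± 2.83 TPM. Behind Hmox2 came the electron donor Por (75.7 and 68.8), the heme transporter Slc48a1 (77.4 and 65.8), which changed places with Por between the pups, and the biliverdin reductase Blvra (68.8 and 61.0), with the heme scavenger Hpx lowest (0.54 and 0.38). Uptake had 14 of 17 genes detected and a median of 20.15 ± 0.566 TPM. Snx3, a recycling factor for the transferrin receptor, was highest (287 and 262), followed by Amn, a partner in endocytosis of filtered proteins (111 and 93.1), Mcoln1, an endosomal and lysosomal iron channel (45.5 and 38.3), and the siderophore-binding Lcn2 (35.9 and 40.2).

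Of the 5 storage genes 4 were detected. The iron chaperones Pcbp1 (417 and 390 TPM) and Pcbp2 (67.5 and 66.3) and the ferritin autophagy receptor Ncoa4 (78.1 and 73.9) stood far above Herc2 (3.71 and 3.14). The hepcidin axis had 4 of 9 genes detected and a median of 0.805 ± 0.163 TPM, the lowest of the 7 subgroups. Those detected were Hfe (17.7 and 17.1), Neo1 (13.4 and 14.0), Bmp2 (8.18 and 9.04) and Bmp6 (2.04 and 2.41). Hamp, the hormone hepcidin that acts on ferroportin, had 0 and 1 counts, and Hamp2 had none in either pup. At this depth neither was detectable above the limit that a count of 0 allows.

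**Figure D5:**
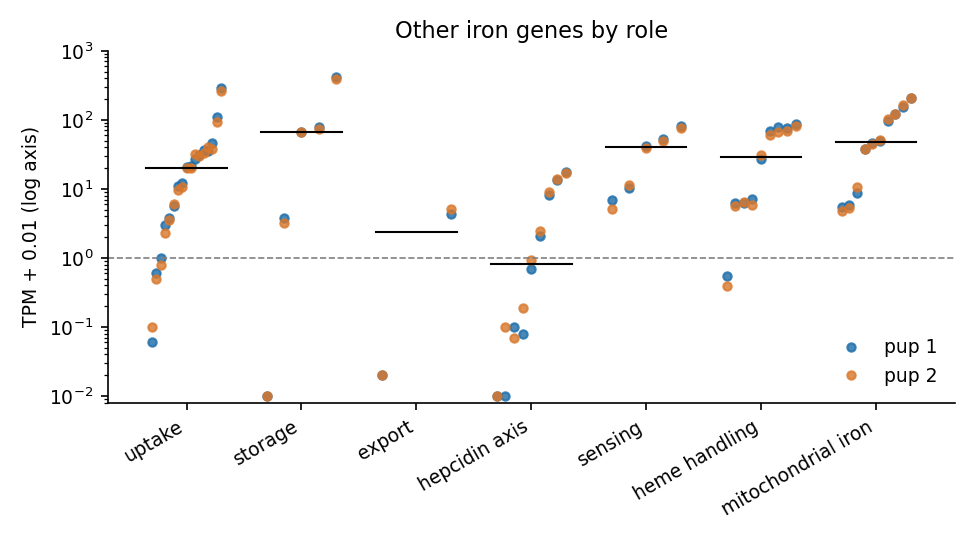
Deposited TPM of the wider iron list by subgroup, 1 point per gene and pup, on a log axis after adding 0.01, with a bar for the subgroup median and a dashed line at 1 TPM. Mitochondrial iron and sensing genes all lie above 4 TPM, and the hepcidin axis reaches down to genes with 0 or 1 counts.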

How the data were processed

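Kidneys of 2 newborn littermates were measured by total RNA-seq from 10 ng of RNA, and the labels place both in 1 group. For each library the authors deposited gene-level and transcript-level tables, which per the file headers hold expected counts (estimated reads, not normalized), TPM, FPKM, posterior means and SDs, and for transcripts the percent of a gene's TPM. The text deposited with the tables names mm10 and GENCODE M4. For aligner, software and counting strand, nothing is given in the sources used here. Models of this kind split reads between similar sequences, which leaves near-identical genes uncertain.

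Gene names, coordinates and sequences come from GENCODE M21 (GRCm38), matched by identifier without version. It left 884 genes unnamed, with 0.225% and 0.228% of TPM. Features with numeric identifiers held 12 and 11 counts. The members, lists and rules were chosen with earlier results of these data known. Named genes were the members, genes of the pairs, genes on the same strand overlapping a member, the 5 highest ferritin look-alikes, and in each list the highest (4, or 3 for markers) and the lowest. Alb, Ahsg, Cd68, Cd163, Timd4, Hamp, Gm6977, Gm20425 and the other genes with a hairpin match in a 5′ UTR fall outside this rule. They were named after their values were seen.

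Detection was 1 TPM in both pups. Ratios between pups used expected counts with TMM factors (edgeR 4.0.16, R 4.3.3; DESeq2 1.42.0 size factors as an alternative), 0.1 CPM added, for genes with at least 50 counts in either pup. Since 1 residual degree of freedom remains, no test across genes was made. The FPKM deposited by the authors served as an alternative scale. Shared sequence was counted in windows of 50 bases on either strand. The ratio step and the hairpin search were tested on simulated data, and the shared-window step was not. Scripts ran in Python 3.11.15 (SciPy 1.17.1, NumPy 2.4.6, pandas 2.3.3) and figures were drawn in Matplotlib 3.10.9.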

Additional observations from a re-analysis of the deposited data

How the results depend on the processing

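All 10 genes were detected at 5 TPM, by posterior mean TPM, after rescaling without mitochondrially encoded genes and in each pup alone. All 10 gene pairs stayed beyond their limit except Tfrc and Slc11a2, which with 0.1 added to TPM differed by 0.43 against a limit of 0.45. The share of other gene pairs beyond the limit was not counted. That pair turned to −0.028 when protein-coding transcripts alone were counted, where Tfrc loses its retained-intron transcripts. Neighbours called apart numbered 5, 6 with coding transcripts and 3 when a gap of at least 2-fold in both pups was asked. Genes past 2-fold between the pups numbered 89, 38 with 1 CPM added, 636 without the filter on low counts and 385 at 1.5-fold, with 0 of the 10 iron genes past the fold in each of these settings. The ferritin look-alike share was 37.0% by TPM and 2.25% by expected counts. By posterior mean TPM, transcripts with an element held 98.9% of Ftl1, 89.7% of Tfrc and 97.99% of Slc40a1. With the looser searches the share became 51.7% for Slc11a2, from 0, and 100% for Heph, from 0. No paired analysis was possible because there is 1 group. Leaving out a pup gives single-pup values, which the text prints, and differences between the pups need both. Depth limits Tfr2, Hephl1, Hamp, Hamp2 and Ftmt, which had 9 counts or fewer.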

Other observations

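Outside the 10 genes, the stricter hairpin search found a match in a 5′ UTR in 6 others of 9 in all. Alas2, the erythroid enzyme that starts heme synthesis and is a known carrier of the element, stood at 10.5 and 10.1 TPM. Ftl1-ps1, the expressed copy of Ftl1, kept the element as well. The other genes were Atrx (115 and 99.95 TPM), Wdfy1 (39.0 and 37.3), Serpina3g (31.04 and 30.83) and Ppp1r1b (10.2 and 9.73). A 3′ UTR match was found in 36 genes, Tfrc among them. Of the wider iron list, 1 gene held a match, Keap1, and there it lay in the coding sequence. Whether any of these sequences folds or is bound was not measured.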
